A study of Mus musculus with 8 samples.

Results

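The genes described here are 10 genes of cartilage-type extracellular matrix that are known or candidate targets of the transcription factor SOX9: the collagen genes Col2a1, Col9a1, Col9a2, Col9a3, Col11a1, Col11a2 and Col27a1, and Mia (Mia1 on the array), Chadl (D930017K21Rik on the array) and Matn3. They were taken by name, with every probe that carries one of these names, and all 10 were on the array, with 21 of its 41174 probes. The genes were picked with their own mutant and wild-type signals already known, so their differences between genotypes are given below as a description, without a test. The tissue was epithelium of the mouse pancreas at e15.5 (days of embryonic development), microdissected by hand with the dorsal and ventral buds together. The Sox9 mutant group held 4 pools from Sox9fl/fl embryos with the Rosa26-CreER allele. The wild-type group held 4 pools from littermates with Rosa26-CreER alone. The Rosa26-CreER line was on C57Bl/6J and the Sox9-flox line on a mix of FVB/N, C57Bl/6J and CD1. Both genotypes developed in dams given tamoxifen, 6 mg per 40 g, at e12.5, 3 days before dissection. Each pool combined the pancreata of 4 embryos. The Rosa26 locus is active in nearly all cells of the embryo, so the recombinase was not limited to the epithelium.

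SOX9 is best known as the master regulator of cartilage, where it binds enhancers of collagen and other matrix genes together with SOX5 and SOX6. Cartilage fibrils are built from type II collagen with type XI collagen in their core and type IX collagen on their surface, and matrilins and small leucine-rich proteins join them to the rest of the matrix. In the embryonic pancreas, SOX9 is instead a factor of multipotent progenitors and later of the duct-forming trunk, and the study looked for pathways regulated by Sox9 in the secondary transition, when endocrine, acinar and duct cells separate.

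Each sample was hybridised to a one-colour Agilent array, and all levels are log2 of the processed spot signal relative to the 75th percentile of the same array. One array, mutant replicate 2, stood apart: its median processed signal was 756 scanner units, against 219 to 272 on the other 7. The scanner software called 86.1% of its spots well above background, against 69.6% to 74.0% on the others. The median correlation of mutant replicate 2 with the other mutant arrays, across genes, was 0.923, against 0.9935 to 0.9956 within genotype for the other 7 arrays. Among genes with a wild-type level of -4 or less, mutant replicate 2 lay a median of 2.0 log2 units above the other mutants, and among genes above 2 it lay at -0.28. The difference on the brightest probe of each measured matrix gene is therefore given with and without mutant replicate 2. All mutant pools were on slide 2 and all wild-type pools on slide 1, so slide and genotype cannot be told apart. Of 19333 genes and unnamed transcripts tested with limma, 411 were higher and 668 lower in the mutant, and with a normexp background correction these counts were 18 and 71. Sox9 itself fell: its brightest probe read 0.59, 0.40, 0.52 and 0.47 in mutant pools, against 1.77, 1.90, 1.87 and 1.77 in wild-type pools (log2 difference -1.33, limma adjusted p = 0.000796). With arrays centred on their median instead, the difference was -1.73 and missed the threshold (limma adjusted p = 0.110). A second Sox9 probe was 5.69-fold lower, and the third overlapped between genotypes.

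Of the 21 probes of the matrix genes, 17 were well above background on at least 4 of the 8 arrays and 15 on all 8. Those 17 probes covered 9 of the 10 genes. Matn3 did not pass. Where a gene had several measured probes, the brightest on average stood for it in the fit, and it is called the main probe below. The median log2 difference, mutant minus wild type, of the 9 main probes was -0.71, beside -0.01 over all tested features. These medians were -1.17 and -0.03 without mutant replicate 2. Of the 9 genes, 5 were called lower and 0 higher by limma, where 5.58% of all features were called, 3.46% lower and 2.13% higher. With mutant replicate 2 left out, 7 were called lower and 0 higher, where 10.6% of all features were called lower and 6.76% higher. The count called lower was 2 with normexp correction, median centring or quantile normalization, and 3 or 4 when another array was left out. Since the genes were picked on this contrast, these counts describe the choice and nothing is read from them. In bulk tissue, fewer cells of a type and less RNA per cell cannot be told apart.

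**Figure D1:**
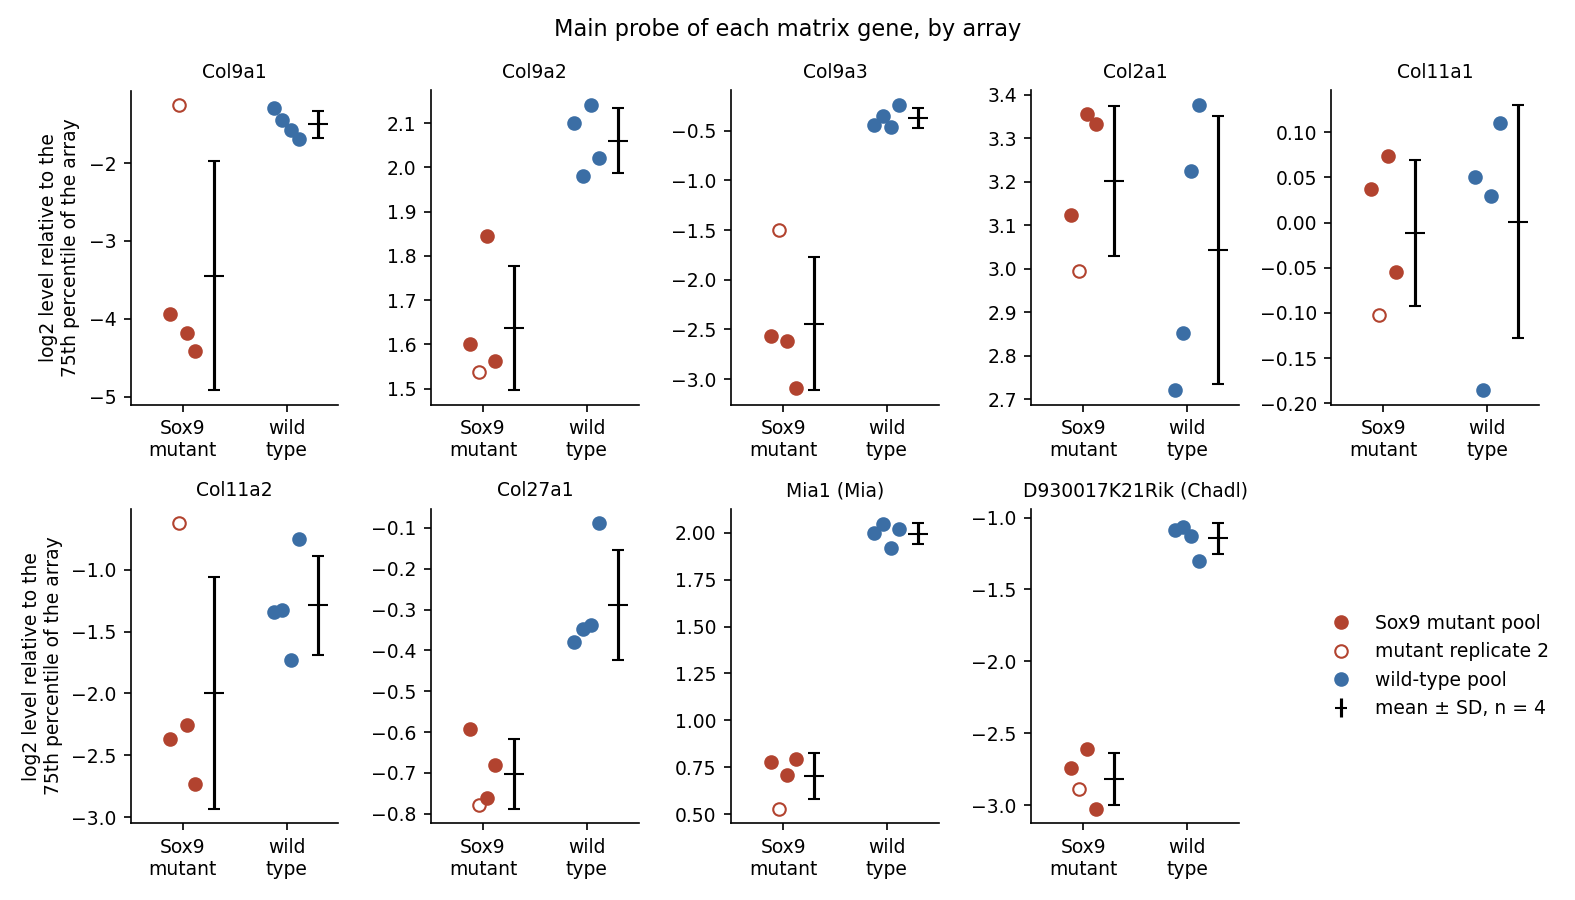
Level of the main probe of each measured matrix gene on each array (y axis, log2 signal relative to the array's 75th percentile, with a range of its own in each panel), Sox9 mutant pools in red left of wild-type pools in blue, mutant replicate 2 as an open circle, and bars for the mean ± SD (n = 4). The mutant points lie below all wild-type points for Col9a2, Col9a3, Col27a1, Mia and Chadl, and the open circle lies far above the other mutants for Col9a1, Col9a3 and Col11a2.

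The promoter windows below are shown for the matrix genes whose main probe did not overlap between genotypes and for which a window was at hand. They are RefSeq sequence, build GRCm38.p6, covering the 250 bases before the annotated start and written 5′ to 3′ on the gene's strand. Capitals mark matches to SOX-type letters, CAAAG or ACAATG, on either strand, and CAAAG on the opposite strand reads CTTTG.
Col9a2, chr4:121039316-121039565, plus strand: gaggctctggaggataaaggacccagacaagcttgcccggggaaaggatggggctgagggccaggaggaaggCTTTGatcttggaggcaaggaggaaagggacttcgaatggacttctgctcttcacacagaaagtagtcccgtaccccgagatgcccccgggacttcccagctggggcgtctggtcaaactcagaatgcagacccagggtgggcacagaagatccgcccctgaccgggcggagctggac
Col27a1, chr4:63215162-63215411, plus strand: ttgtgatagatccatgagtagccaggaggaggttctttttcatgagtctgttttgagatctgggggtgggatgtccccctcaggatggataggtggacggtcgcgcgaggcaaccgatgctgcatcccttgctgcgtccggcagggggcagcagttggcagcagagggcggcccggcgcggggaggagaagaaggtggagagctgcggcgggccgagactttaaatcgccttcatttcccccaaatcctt
Mia, chr7:27181150-27181399, minus strand: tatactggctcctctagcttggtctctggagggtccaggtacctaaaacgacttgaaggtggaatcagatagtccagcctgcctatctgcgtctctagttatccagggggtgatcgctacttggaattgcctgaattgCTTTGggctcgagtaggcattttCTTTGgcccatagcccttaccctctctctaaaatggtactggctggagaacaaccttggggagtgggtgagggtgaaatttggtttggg
Chadl, chr15:81697288-81697537, minus strand: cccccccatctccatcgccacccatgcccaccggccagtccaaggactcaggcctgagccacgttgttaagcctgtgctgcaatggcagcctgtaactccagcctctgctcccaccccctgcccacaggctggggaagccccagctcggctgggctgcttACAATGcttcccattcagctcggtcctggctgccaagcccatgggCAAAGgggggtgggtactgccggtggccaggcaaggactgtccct

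Windows were found for 8 of the 10 genes, 9 windows in all, since Col9a1 has 2 starts. The motif CAAAG lay in 7 of the 9 on either strand, and in 48.6% of all 32851 promoter windows of the same length. Mia held 2 matches, with the first base 112 and 89 bases before the start. Chadl held CAAAG 45 bases before the start and ACAATG 90 bases before it, and ACAATG was found in 1 of the 9 windows and in 10.7% of all. Col9a2 held 1 CAAAG, 178 bases before the start, and Col27a1 none. The longer forms ACAAAG, which contains CAAAG, and AACAAT, which can overlap ACAATG, lay in 0 of the 9 windows and in 16.5% and 9.42% of all windows. A match describes letters and not a binding site.

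The 3 genes of type IX collagen, the fibril-associated collagen that coats type II fibrils, each had 1 probe and were each lower on average in the mutant, by very different amounts. Col9a1 (mm8 chr1:24206120-24206179, plus strand) read -3.94, -1.25, -4.18 and -4.41 in mutant pools, against -1.30, -1.45, -1.57 and -1.69 in wild-type pools. Mutant replicate 2 lay above all wild-type pools, and the other mutant pools lay far below them. The means were -3.44 ± 1.47 in the mutant and -1.50 ± 0.17 in wild type (SD, n = 4 each), a log2 difference of -1.94 with a standard error of 0.74 computed from the 2 SDs. Without mutant replicate 2 the difference was -2.67 with a standard error of 0.16, or 6.37-fold lower, and the groups did not overlap.

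Col9a3 (chr2:180545256-180545838, plus strand) read -2.57, -1.50, -2.62 and -3.08 in mutant pools, against -0.44, -0.35, -0.46 and -0.24 in wild-type pools. All mutant pools were below all wild-type pools, with mutant replicate 2 the nearest to them. The probe was 4.20-fold lower in the mutant (log2 difference -2.07, standard error 0.34), and 5.23-fold lower without mutant replicate 2. Col9a2 (chr4:120552728-120552787, plus strand) read 1.6, 1.54, 1.84 and 1.56 in mutant pools, against 2.10, 1.98, 2.14 and 2.02 in wild-type pools. The groups did not overlap here either, but the gap was narrow. Col9a2 averaged 1.64 ± 0.14 in the mutant and 2.06 ± 0.07 in wild type (SD, n = 4 each), which is 1.34-fold lower in the mutant.

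Col2a1 encodes the main fibril-forming collagen of cartilage, and its 3 probes differed. Its main probe (chr15:97804088-97804147, minus strand) was spotted 10 times on each array and read 3.12, 2.99, 3.36 and 3.33 in mutant pools, against 2.72, 2.85, 3.22 and 3.38 in wild-type pools. The groups overlapped, and the means were 3.20 ± 0.17 in the mutant and 3.04 ± 0.31 in wild type (SD, n = 4 each). The other measured probe (chr15:97804108-97804167, minus strand) shares 40 genomic bases with the main probe, offset by 20. It read -1.84, -0.83, -1.85 and -2.15 in mutant pools, against -0.35, -0.40, -0.39 and -0.29 in wild-type pools. On this probe all mutant pools were below all wild-type pools, 2.48-fold on average and 3.01-fold without mutant replicate 2. The third Col2a1 probe did not clear the background on any of the 8 arrays.

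The repeated spots of the main Col2a1 probe show how far one array varied within itself. The spots of an array had a coefficient of variation of 3.99% to 5.85% on mutant arrays and of 7.81% to 20.9% on wild-type arrays. Their median processed signals were 19992, 19390, 21281 and 20849 units on mutant arrays, against 13641, 15561, 17685 and 23547 units on wild-type arrays. The mutant arrays were close to each other, and the wild-type arrays lay on both sides of them. One spot of mutant replicate 2 was marked as an outlier and left out, leaving 9.

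**Figure D2:**
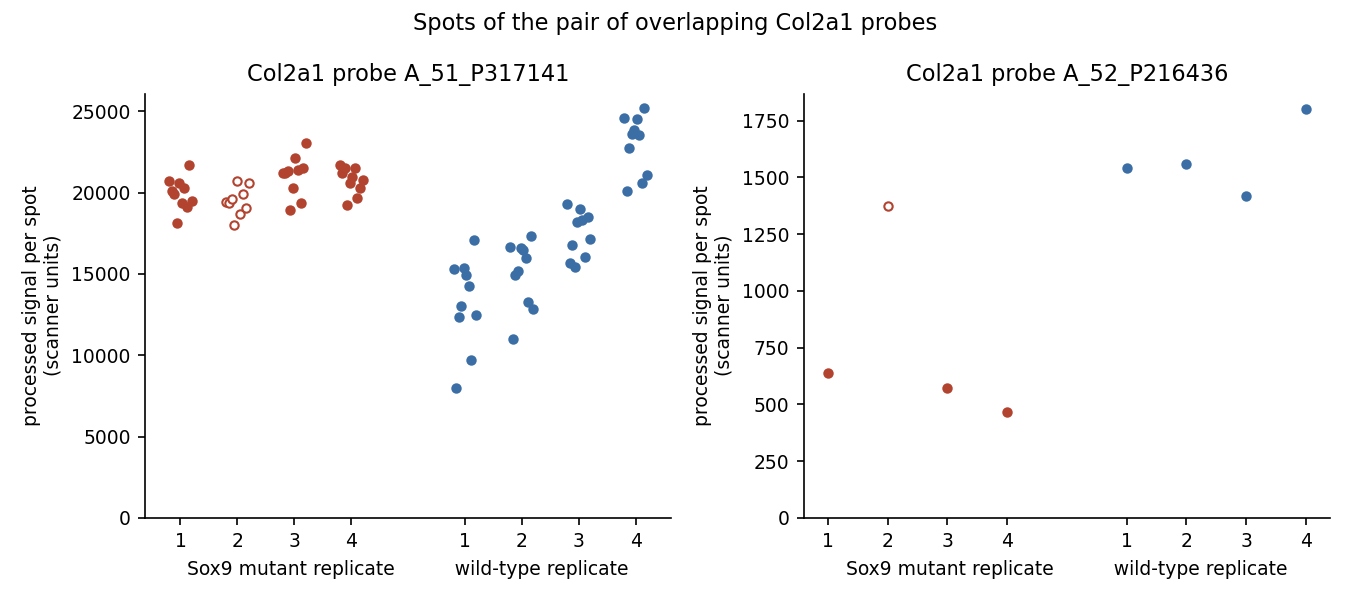
Processed signal of every spot used of the 2 measured Col2a1 probes (y axis, scanner units from 0, before any scaling between arrays, with a range of its own in each panel), mutant arrays in red left of wild-type arrays in blue, and mutant replicate 2 as open circles. The main probe, on the left, has 10 spots per array (9 on mutant replicate 2) and its groups overlap, while the other probe has 1 spot per array and every mutant spot lies below every wild-type spot.

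Type XI collagen sets the diameter of cartilage fibrils, and its chain genes differed. The main Col11a1 probe (chr3:114211239-114211297, plus strand) read 0.04, -0.10, 0.07 and -0.05 in mutant pools, against 0.05, -0.19, 0.03 and 0.11 in wild-type pools. The groups overlapped, with a log2 difference of -0.01 and a standard error of 0.08. A dimmer Col11a1 probe (chr3:114082172-114082231, plus strand) read -5.14, -2.74, -5.15 and -5.39 in mutant pools, against -5.68, -6.00, -6.49 and -6.78 in wild-type pools, 2 of which were well above background. Its mutant pools were all above its wild-type pools, the opposite of what the lower probes of other matrix genes showed. The log2 difference was 1.63, and 1.01 without mutant replicate 2. The remaining Col11a1 probe was above background on mutant replicate 2 alone.

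The main Col11a2 probe (chr17:33676507-33676566, plus strand) read -2.37, -0.62, -2.26 and -2.74 in mutant pools, against -1.35, -1.32, -1.73 and -0.75 in wild-type pools. Mutant replicate 2 was the highest of all 8 pools and the other 3 mutants were the lowest. The log2 difference was -0.71 with a standard error of 0.51, and without mutant replicate 2 it was -1.17 with a standard error of 0.25, or 2.24-fold lower. On a dimmer Col11a2 probe mutant replicate 2 was again the highest pool, and the groups overlapped with and without it, with log2 differences of 0.32 over all pools and -0.51 without mutant replicate 2.

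Col27a1 encodes a fibril-forming collagen of cartilage and other tissues, and its 3 probes pointed in different directions. The main probe (chr4:62820812-62820871, plus strand) read -0.59, -0.78, -0.76 and -0.68 in mutant pools, against -0.38, -0.35, -0.34 and -0.09 in wild-type pools. All mutant pools were below all wild-type pools, 1.33-fold on average. The probe at chr4:62816266-62817699 read -1.23, -0.98, -1.32 and -1.41 in mutant pools, against -1.25, -1.16, -1.28 and -1.56 in wild-type pools, which overlap. The probe at chr4:62778935-62778994 was higher on average in the mutant, with a log2 difference of 0.98 and a standard error of 0.42, and its groups overlapped too. The mean of the 3 probes was 0.21 log2 units higher in the mutant, so the lower level of Col27a1 rests on the main probe.

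Mia encodes a small secreted protein of chondrocytes and melanoma cells, and it gave the closest reading among probes. The main probe (Mia1, chr7:26889492-26889551, minus strand) read 0.78, 0.53, 0.71 and 0.79 in mutant pools, against 2.0, 2.05, 1.92 and 2.02 in wild-type pools. A second probe (chr7:26888582-26888975) read 0.73, 0.81, 0.63 and 0.64 in mutant pools, against 1.96, 2.0, 1.96 and 1.95 in wild-type pools. The third (chr7:26888946-26889005) read 0.44, 0.19, 0.36 and 0.43 in mutant pools, against 1.89, 1.85, 1.76 and 1.67 in wild-type pools. No mutant pool reached a wild-type pool on any of the 3 probes, and mutant replicate 2 was the lowest mutant on 2 of them and the highest on the other. The probes were 2.45-fold, 2.40-fold and 2.70-fold lower in the mutant, with standard errors of 0.07, 0.05 and 0.08 on the log2 scale. On the main probe the mutant held 40.8% of the wild-type level, where the main Sox9 probe held 39.8%. The second Sox9 probe held 17.6%, and the third, whose groups overlapped, 155%.

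Chadl encodes a chondroadherin-like protein with leucine-rich repeats that binds collagen. Its main probe (D930017K21Rik, chr15:81520243-81520302, minus strand) read -2.74, -2.89, -2.61 and -3.03 in mutant pools, against -1.09, -1.06, -1.13 and -1.30 in wild-type pools. The groups were far apart and mutant replicate 2 lay among the other mutants. Chadl averaged -2.82 ± 0.18 in the mutant and -1.15 ± 0.11 in wild type (SD, n = 4 each), which is 3.19-fold lower, or 31.4% of the wild-type level. A dimmer probe (chr15:81523231-81523287) read -5.95, -3.92, -6.54 and -6.15 in mutant pools, against -5.21, -5.01, -5.05 and -5.66 in wild-type pools. It overlapped through mutant replicate 2 alone, and without that pool its log2 difference was -0.98. The third Chadl probe, and the single probe of Matn3, a matrilin that links collagen fibrils to other matrix proteins, were well above background on mutant replicate 2 only. Matn3 read -8.69, -2.60, -8.55 and -8.31 in mutant pools, against -8.30, -8.34, -8.73 and -7.63 in wild-type pools, so no fold is given for it.

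**Figure D3:**
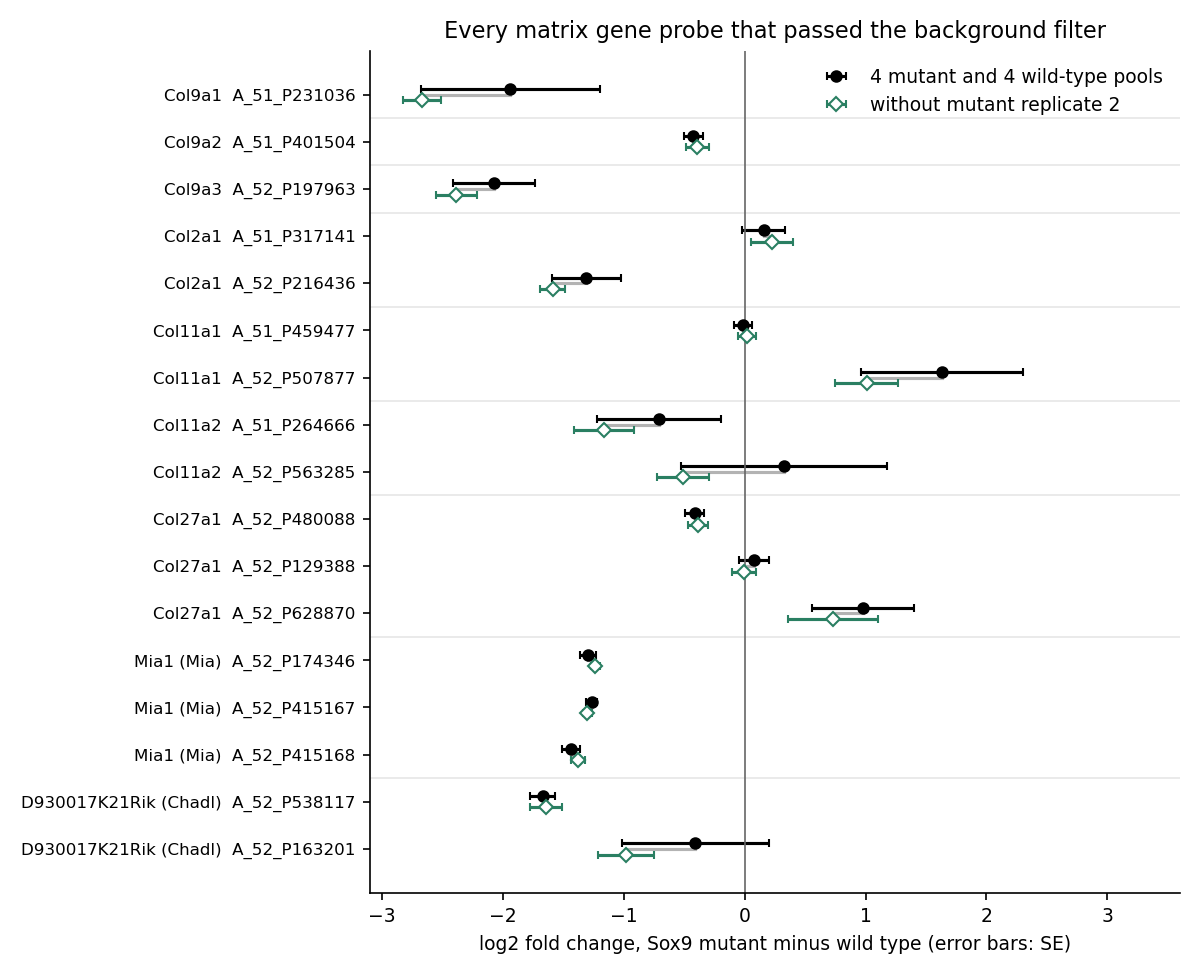
Log2 difference, mutant minus wild type (x axis), of each of the 17 measured probes of the matrix genes, with bars of 1 standard error, over all pools (black circles) and without mutant replicate 2 (green diamonds). The 3 Mia probes lie together between -1.44 and -1.24, while the probes of Col2a1, Col11a1 and Col27a1 lie on both sides of 0.

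Leaving out mutant replicate 2 moved the log2 differences little on the main probes of Mia (-1.29 with it and -1.24 without it), Chadl (-1.67 and -1.65), Col9a2 (-0.42 and -0.39), Col27a1 (-0.41 and -0.39), Col11a1 (-0.01 and 0.02) and Col2a1 (0.16 and 0.23). Over the 17 measured probes, 8 had all mutant pools below all wild-type pools, 1 had them above and 8 overlapped. Over all 29462 measured probes, 12.6% lay below and 13.0% above. Without mutant replicate 2, 11 of the 17 lay below and 1 above. The shares over all probes are for all 8 pools and were not counted without mutant replicate 2, so nothing is read from this rise. The standing of mutant replicate 2 went with the level of the probe. It was the highest mutant pool on 7 of 8 probes with a wild-type mean under -1, and on 3 of 9 brighter ones.

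Among the main probes that passed the filter on dim probes, Col9a1 varied most over the 8 arrays, and the 5 genes whose levels followed it most closely were Fam166b, Wnk2, Esyt3, Hpdl and Slc28a2. Their Pearson correlations with Col9a1 were 0.994, 0.986, 0.986, 0.985 and 0.984 over the 8 arrays. Slc28a2, which encodes a nucleoside transporter, read -4.72, -2.81, -4.87 and -4.98 in mutant pools, against -3.19, -3.41, -3.49 and -3.40 in wild-type pools. As for Col9a1, mutant replicate 2 sat above the wild-type pools and the other mutants below them. The correlations were 0.983 to 0.997 over the 7 arrays other than mutant replicate 2. All these points share the same arrays and the same difference between genotypes.

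Of a list of 35 other cartilage genes, 28 were measured, 2 were called lower and 0 higher, where 5.58% of all features were called in either direction. The median log2 difference was -0.17, and 10 of the 28 had all mutant pools below all wild-type pools, where 15.2% of all features did. An unadjusted p under 0.05 was found for 12 of the 28. The share of all features under that p was not counted, here or for the lists below, so nothing is read from such counts. The 2 genes called lower were Hapln3, a link protein, and Scrg1, a small secreted protein of chondrogenic cells. Hapln3 read -1.15, -1.42, -1.34 and -1.21 in mutant pools, against -0.70, -0.97, -0.90 and -0.83 in wild-type pools (log2 difference -0.43, limma adjusted p = 0.0387). Scrg1 was well above background on 3 of the 4 mutant arrays, and its log2 difference was -1.24 (limma adjusted p = 0.0474). Both were near the threshold: each was called in 1 of the 8 fits that left out 1 array, and no gene of the list was called with normexp correction or median centring. With mutant replicate 2 left out, 7 of the list were called lower and 1 higher, where 17.4% of all features were called. The 7 include Cnmd, which was then well above background on wild-type arrays only, so nothing is read from its call.

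Of 33 other collagen genes, 31 were measured, with 1 called higher, 1 called lower and a median log2 difference of -0.12. Over all features, 2.13% were called higher and 3.46% lower. Col26a1 (Emid2 on the array), an unusual collagen with emilin-type sequence, rose: it read 2.93, 2.79, 3.05 and 2.91 in mutant pools, against 2.24, 2.16, 2.26 and 2.33 in wild-type pools. That was 1.59-fold higher (limma adjusted p = 0.0057), and each of the 8 fits with 1 array removed called it too. Col4a6, a chain of basement membrane type IV collagen, fell: it read 0.24, -0.01, 0.35 and 0.13 in mutant pools, against 0.77, 0.70, 0.89 and 1.11 in wild-type pools. Its log2 difference was -0.69 (limma adjusted p = 0.0209), and it was called in 4 of those 8 fits. With normexp correction or median centring, 0 of these collagen genes were called. The counts were 1 higher and 3 lower when mutant replicate 2 was left out, where 6.76% of all features were called higher and 10.6% lower.

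The enzymes, chaperones and transport factors that make and export collagen did not pass the test. Of 28 measured, 0 were called by limma in either direction, where 5.58% of all features were, and the median log2 difference was -0.11. An unadjusted p under 0.05 was found for 5, a count with no share of all features beside it. The smallest p-values belonged to Adamts3, a procollagen protease (log2 difference -0.53, limma adjusted p = 0.0805), and Mia3, which loads collagen into transport vesicles (log2 difference -0.30, limma adjusted p = 0.0871). When mutant replicate 2 was left out, 3 of the 28 were called lower, where 10.6% of all features were.

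**Figure D4:**
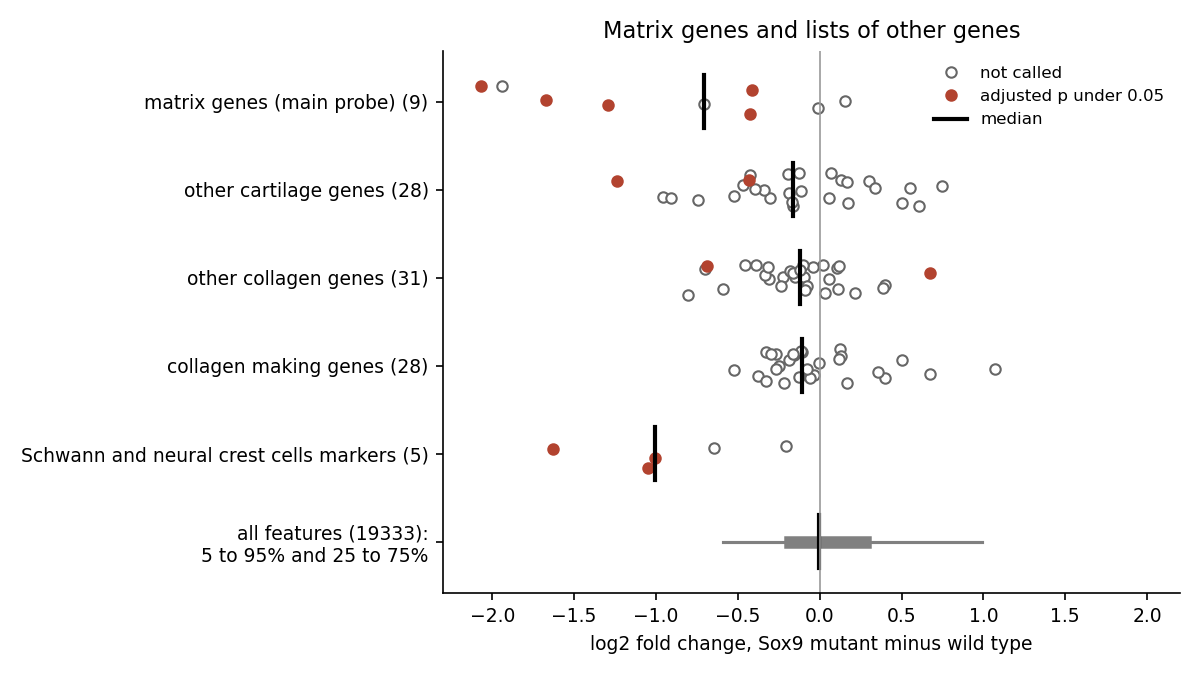
Log2 difference, mutant minus wild type (x axis), of each measured gene (1 point per gene, filled where the limma adjusted p was under 0.05) in the matrix genes, 3 lists of other genes and the Schwann and neural crest markers, with a line at each median and, in the bottom row, the 5% to 95% and 25% to 75% ranges of all features. The matrix genes have a median of -0.71, the lists of other cartilage, other collagen and collagen-making genes have medians of -0.17, -0.12 and -0.11, and the 5 Schwann and neural crest markers have one of -1.01. The matrix genes were picked on this contrast, so their filled points and median describe the choice and are not a test.

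Cells of other types in the dissected tissue can also make several of these proteins, so their markers are given beside the matrix genes. Of 10 markers of cartilage cells, 7 were measured, with 0 called by limma in either direction, where 5.58% of all features were, and 1 at an unadjusted p under 0.05. All 10 are also in the list of other cartilage genes above, so the counts of these lists are not separate. Without mutant replicate 2, 2 of the 7 were called lower, Snorc and Cnmd, where 10.6% of all features were called lower. Cnmd was then well above background on wild-type arrays only and passed the filter through them, so nothing is read from its call. Snorc, a chondrocyte proteoglycan, had a log2 difference of -0.11 over all pools (limma adjusted p = 0.856) and of -0.52 without that pool (limma adjusted p = 0.0137). Matn1, Ucma and Col10a1, each a product of chondrocytes, were not well above background on any wild-type array. Acan, the main cartilage proteoglycan, read -1.21, -0.62, -1.48 and -1.80 in mutant pools, against -0.99, -1.06, -1.12 and -1.28 in wild-type pools. Its groups overlapped. Sox6 and Sox5, the partners of SOX9 in cartilage, had log2 differences of -0.17 and 0.06 (limma adjusted p = 0.172 and 0.901), which were -0.14 and -0.22 without mutant replicate 2. Hapln1 and Comp had differences of 0.55 and 0.30 (limma adjusted p = 0.316 and 0.764), and without mutant replicate 2 these were 0.23 and -0.37 (limma adjusted p = 0.293 and 0.0573). Cnmd, the chondrocyte protein chondromodulin (Lect1 on the array), read -6.87, -1.82, -6.80 and -8.25 in mutant pools, against -5.34, -4.50, -4.62 and -5.44 in wild-type pools. Like Col9a1, it was below wild type in every mutant pool but replicate 2. The other mutant pools were not well above background, so the size of the difference is not given. The mean level of the measured cartilage markers was -3.89 to -1.79 in mutant pools, and -3.89 to -3.51 without mutant replicate 2, against -3.22 to -3.03 in wild-type pools. This mean includes Cnmd at its values below background, so the gap without mutant replicate 2 rests in part on them. The median log2 difference of the 7 markers was -0.11, and -0.37 without mutant replicate 2. The part of cartilage cells in the matrix gene levels was not tested.

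Of 5 markers of Schwann and neural crest cells, 3 fell, 0 rose and 2 did not pass the test. Over all features, 3.46% were called lower and 2.13% higher. S100b, a calcium-binding protein of glia and chondrocytes, read -0.74, 0.05, -0.85 and -0.87 in mutant pools, against 0.95, 1.08, 1.03 and 1.06 in wild-type pools (limma adjusted p = 0.0076). Sox10, a transcription factor of neural crest and glia, read -1.39, -1.48, -0.98 and -1.39 in mutant pools, against -0.22, -0.37, -0.16 and -0.29 in wild-type pools (limma adjusted p = 0.0059). The groups did not overlap for either gene. Fabp7, a lipid-binding protein of glial precursors, had a log2 difference of -1.01 (limma adjusted p = 0.0323). Of the 8 fits with 1 array removed, 2 called it. Foxd3, a neural crest transcription factor, and Erbb3, a neuregulin receptor, had differences of -0.65 and -0.20 (limma adjusted p = 0.0606 and 0.252). When mutant replicate 2 was left out, 4 of the 5 were called lower, Foxd3 included (limma adjusted p = 0.0143), where 10.6% of all features were called lower. The mean of the 5 markers was -0.65 to -0.38 in mutant pools, with the same range without mutant replicate 2, against 0.29 to 0.47 in wild-type pools. The part of these cells in the matrix gene levels was not tested.

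Markers of the pancreatic epithelium itself were well measured, and 3 of 10 fell in the mutant, Neurog3, Spp1 and Pdx1, where 3.46% of all features were called lower. The mean of the 10 was 3.40 to 3.68 in mutant pools, against 4.01 to 4.05 in wild-type pools. This gap rests mainly on Neurog3, Spp1 and Pdx1, with log2 differences of -1.89, -1.14 and -1.05. The 7 not called lay between -0.32 (Ptf1a) and 0.31 (Krt18), with Cdh1 at -0.01 and Epcam at -0.05. When mutant replicate 2 was left out, the epithelial keratin genes Krt8 and Krt18 were called higher, as were 6.76% of all features. Of 12 mesenchyme markers, 2 rose, Nkx3-2 and Barx1, and 0 fell, where 2.13% of all features were called higher. Nkx3-2 was called in 7 and Barx1 in 1 of the 8 fits that left out 1 array. Without mutant replicate 2 the counts were 3 higher and 1 lower, where 6.76% of all features were called higher and 10.6% lower. The mean of these markers was 2.85 to 2.95 in mutant pools, against 2.74 to 2.90 in wild-type pools. All 12 mesenchyme markers passed the filter on dim probes. Of 4 endothelial and 4 blood markers, 0 were called by limma in either direction, where 5.58% of all features were. At an unadjusted p under 0.05 there were 0 endothelial markers and 1 blood marker.

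**Figure D5:**
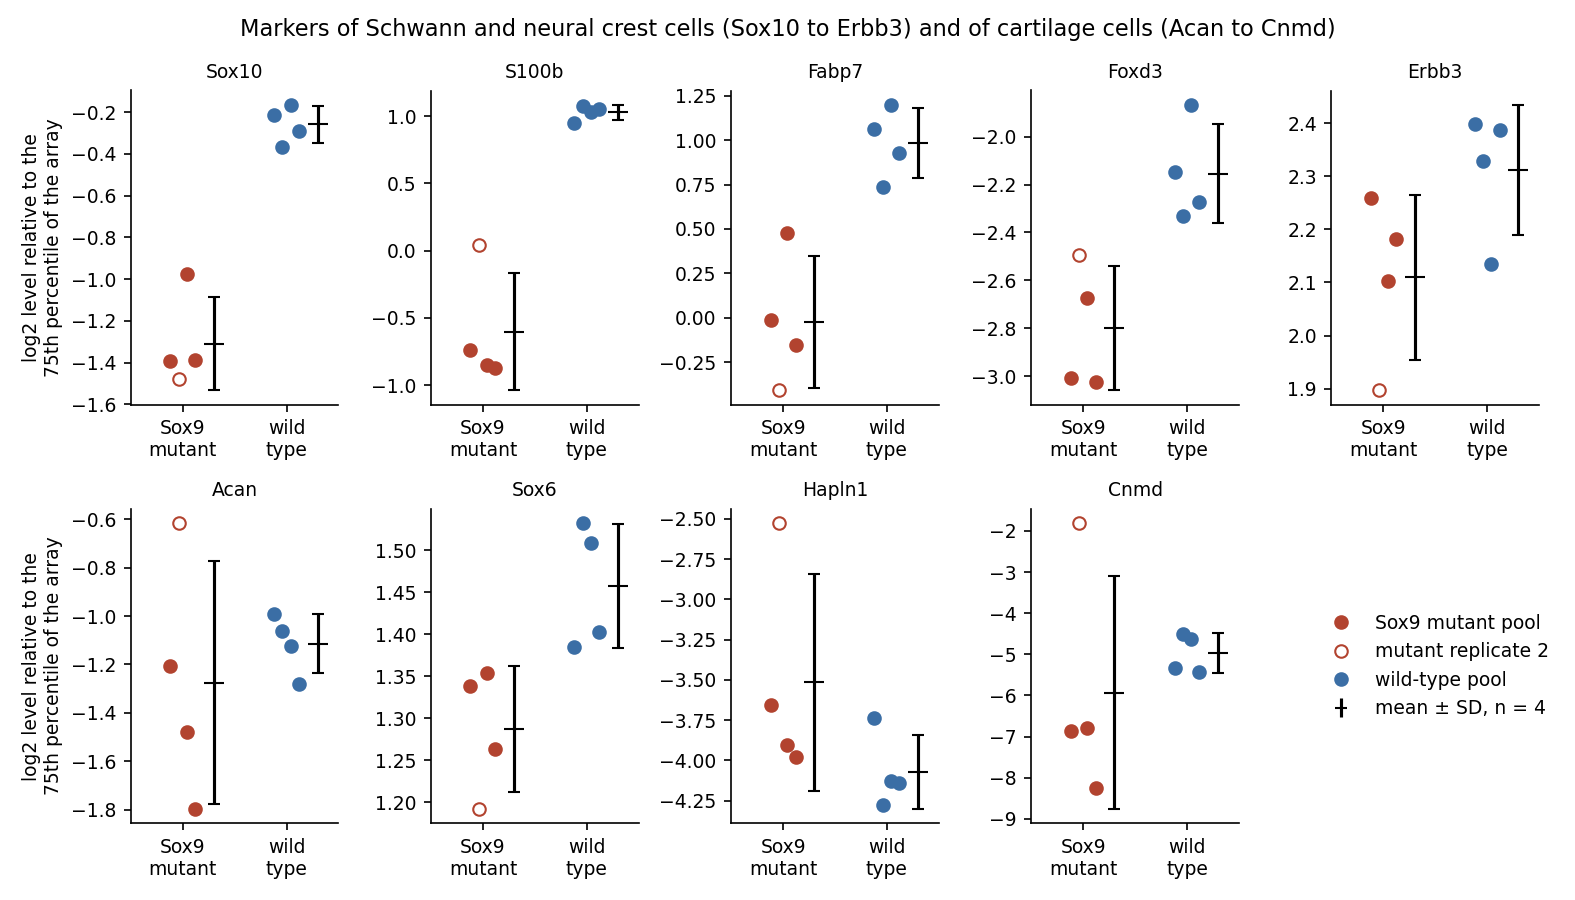
Level on each array (y axis, log2 signal relative to the array's 75th percentile, with a range of its own in each panel) of 5 Schwann and neural crest markers in the top row and 4 cartilage cell markers in the bottom row, Sox9 mutant pools in red left of wild-type pools in blue, mutant replicate 2 as an open circle, and bars for the mean ± SD (n = 4). Sox10, S100b, Fabp7 and Foxd3 are lower in every mutant pool than in any wild-type pool, with a narrow gap for Foxd3. The open circle lies far above the other mutants for S100b, Cnmd, Hapln1 and Acan.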

How the data were processed

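Scanner files of 8 one-colour arrays were used, 4 per genotype, from 250 ng of total RNA per pool of embryos. Per the file headers, the authors read array design 014868 with Agilent Feature Extraction 9.5.3.1. The deposited processed signal is an intensity on a linear scale with background already subtracted and no scaling between arrays. The submitters' processing notes name limma without steps. Probe coordinates are those of the files (mm8, NCBI build 36).

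Control spots and spots flagged as outliers (52 to 75 per array) were left out, log2 signals of one probe averaged, and the array's 75th percentile subtracted. Probes well above background on at least 4 of 8 arrays were kept, 29462 of 41174, and the brightest probe of a gene represented it, giving 19333 features. Current names came from a RefSeq table of assembly GRCm38.p6: 24375 probes matched by accession, 6301 by symbol, 2426 by synonym, and 8072 had no match. The fit used limma 3.58.1 in R 4.3.3 (lmFit and eBayes, genotype as the only term, two-sided), with Benjamini-Hochberg adjustment over all features and a threshold of 0.05. It was tested on simulated data. Standard errors of the matrix genes come from the plain SDs. The number of arrays limits the precision.

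The matrix genes and the lists of other genes were chosen with earlier results of these data known. The named genes were every probe of the matrix genes and of Sox9, up to 4 called genes per list (or the 2 with the smallest p), all cartilage and Schwann cell markers (some Schwann cell markers are not reported here and enter no count), and the 5 genes most correlated with the most variable matrix gene. The epithelial and mesenchymal markers named are called ones, and were chosen after their values were seen. Alternatives were normexp background correction (offset 50), centring on the median, quantile normalization, no filter and a filter on all 8 arrays, other rules for several probes, array weights, the deposited series table, a replicate block, and leaving out each array. Replicate numbers do not pair the samples: the correlation of the deviations of same-numbered pools was 0.02, -0.02, 0.05 and 0.13.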

Additional observations from a re-analysis of the deposited data

Results flagged for a closer look

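Within-group outliers were sought on every probe of the matrix genes and of Sox9 and on the named list genes, 84 groups in all, by dividing the gap of the highest or lowest pool to its neighbour by the range of the group. Chance flags about 1 group in 20, and 13 passed Dixon's critical value for 4 pools, 11 of them through mutant replicate 2. That pool was the highest mutant for Col9a1 (0.852), a Col11a1 probe (0.904), a Col11a2 probe (0.830), Matn3 (0.937), the dimmest probes of Col2a1 (0.913) and Chadl (0.849), a Sox9 probe (0.892), Comp (0.885), Snorc (0.847) and S100b (0.858). It was the lowest mutant for Mia3 (0.868). Among wild-type pools, replicate 4 was the highest for Col27a1 (0.852) and replicate 2 for a Mia probe (0.845), both with small ranges. On Matn3 and the dimmest Chadl probe, mutant replicate 2 was the only pool above background, and on the dimmest Col2a1 probe no pool was.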

How the results depend on the processing

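Leaving out 1 array gave 363 to 3355 features called, 0 to 8 other cartilage genes, 1 to 4 other collagen genes, 0 to 3 collagen-making genes, a median of the matrix genes of -1.17 to -0.46 and a Sox9 difference of -1.36 to -1.30. Without mutant replicate 2, 3355 features were called, and without each other array in turn 363 to 536. The highest count of other cartilage genes, 8 without mutant replicate 2, includes Cnmd, from whose call nothing is read. With normexp there were 89 calls, 0 other cartilage and 0 other collagen genes, and a matrix median of -0.90. With median centring, which moved the median of all features to -0.40, these were 45, 0, 0 and -1.11, and Sox9 was at -1.73 (limma adjusted p = 0.110). With no filter they were 426, 0, 1 and -0.57, and with the mean of a gene's probes 711 calls, 0 other cartilage genes and a matrix median of -0.58. Quantile normalization called 1 other cartilage and 1 collagen-making gene. Each probe on its own gave 1 other cartilage gene and a matrix median of -0.42. Array weights gave 4784 calls, with 14, 4 and 8 in the lists of other cartilage, other collagen and collagen-making genes and a matrix median of -1.11. The deposited series table gave 2153 calls, with 5 other cartilage and 2 collagen-making genes and a matrix median of -0.97, and holds no value for the main probes of Sox9 and Col2a1. The replicate block gave 145 calls, 0 other cartilage and 0 other collagen genes, and called 2 matrix genes lower. Only mutant replicate 4 correlated best with its own number.

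Col9a1, Col9a2, Col9a3, Col11a2, Mia and Chadl were lower in the mutant under all 18 alternatives. Col27a1 was lower in 17 and reversed, at 0.21, with the mean of its probes. Col11a1 was lower in 11 of 18 and Col2a1 in 2 of 17. The cause of these shifts was not tested. Dropping the filter, a filter on all 8 arrays, each probe on its own and the replicate block returned the main differences unchanged, so the alternatives are not separate checks. The genes were also picked on this contrast, so nothing is read from how often a sign held. Low signal over background limits Matn3, the dimmer probes of Col11a1, Col11a2 and Chadl, and Cnmd.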
